A study of Rattus norvegicus with 12 samples.

Results

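The genes described here are transcription factors of the AP-1 family and related immediate early genes: Fos, Fosb, Fosl1, Fosl2, Jun, Junb, Jund, Egr1, Atf3 and Maff. They were taken by name from a joint count table of 24660 genes, with earlier results of these data known. Of the 10 genes named, 9 had a row in the table, and all 9 passed the filter on low counts; Junb was not analysed here. Gene expression was measured by RNA sequencing of total RNA in 12 libraries of NRK-52E cells, a wild-type rat kidney line described as tubular epithelial, with 3 libraries in each of 4 groups. 3D-EV cells and 2D-EV cells were given TGF-beta1 for 24 h and then extracellular vesicles (EVs, small membrane particles released by cells) for 48 h at 500000000 particles/ml; the series text calls 3D-EVs the efficiently produced kind and 2D-EVs the conventional one. TGF-beta1 cells were given the cytokine alone, and control cells have no agent in their labels. The TGF-beta1 dose is given as 10 µg/ml, a unit that is in doubt because ng/ml doses are usual. All cells were grown in medium with serum. No source used here gives the harvest times of control and TGF-beta1 cells or the cells that made the vesicles, so vesicles and time after TGF-beta1 cannot be told apart.

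AP-1 is a dimer of basic leucine zipper (bZIP) proteins: a Jun protein pairs with a Fos protein, with another Jun protein or with a member of the ATF family, and the pair binds short DNA sites in promoters and enhancers. Fos, Fosb, Jun, Egr1 and Atf3 are immediate early genes, transcribed within minutes of a growth factor, serum, stress or handling of the cells and then shut off again, and their mRNAs are short-lived. In kidney tubule cells AP-1 and Egr1 act beside the Smad proteins of the TGF-beta pathway on matrix genes.

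The promoter windows of 4 of these genes are shown because they differ in the elements known to drive rapid induction. Whether these elements bear on how the genes varied between libraries was not tested. Windows run from 250 bases before to 50 bases after the annotated start in the RefSeq table on build GRCr8; the counts were made on another build, mRatBN7.2. Capitals mark matches on either strand to the CArG box (the serum response element core, bound by SRF), the cyclic AMP response element TGACGTCA, the AP-1 site TGANTCA, the GC box GGGCGG and the TATA box TATAAA, none of which overlap in these windows.
Egr1 (chr18:26736828-26737127, plus strand): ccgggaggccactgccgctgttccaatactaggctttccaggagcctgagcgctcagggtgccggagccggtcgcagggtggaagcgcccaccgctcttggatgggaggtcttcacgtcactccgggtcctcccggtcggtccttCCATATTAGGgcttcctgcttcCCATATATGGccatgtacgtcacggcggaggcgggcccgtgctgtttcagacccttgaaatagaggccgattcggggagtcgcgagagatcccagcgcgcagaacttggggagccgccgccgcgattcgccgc
Jund (chr16:18769722-18770021, minus strand): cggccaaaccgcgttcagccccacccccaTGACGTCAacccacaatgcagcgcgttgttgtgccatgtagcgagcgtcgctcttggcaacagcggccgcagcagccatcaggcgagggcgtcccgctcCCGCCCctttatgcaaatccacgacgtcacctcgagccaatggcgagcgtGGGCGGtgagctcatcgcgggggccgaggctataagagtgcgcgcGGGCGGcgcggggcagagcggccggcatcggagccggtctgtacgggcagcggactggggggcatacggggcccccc
Maff (chr7:112792537-112792836, plus strand): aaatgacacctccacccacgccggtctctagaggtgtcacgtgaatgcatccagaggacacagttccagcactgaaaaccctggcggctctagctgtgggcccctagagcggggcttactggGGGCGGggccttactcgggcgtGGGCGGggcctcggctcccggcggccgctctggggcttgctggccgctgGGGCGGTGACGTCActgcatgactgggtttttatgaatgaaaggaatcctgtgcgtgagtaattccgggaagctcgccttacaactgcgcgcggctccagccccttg
Fosl1 (chr1:212183635-212183934, plus strand): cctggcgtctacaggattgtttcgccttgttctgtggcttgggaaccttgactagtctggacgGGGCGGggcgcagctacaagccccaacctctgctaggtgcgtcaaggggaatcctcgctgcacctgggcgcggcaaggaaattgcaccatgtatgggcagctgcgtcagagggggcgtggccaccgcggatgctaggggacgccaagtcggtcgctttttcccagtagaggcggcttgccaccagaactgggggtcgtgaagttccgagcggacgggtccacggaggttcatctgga

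The Egr1 window held 2 CArG boxes, which begin 105 and 83 bases before the start, and no match to the other 4 motifs. Of 33469 rat windows of this length, 1.64% held a CArG box. Jund and Maff each held 1 cyclic AMP response element, a motif found in 1.83% of all windows, and 3 GC boxes, found in 33.1%. In Maff the element directly follows the last GC box. Fosl1 held a single GC box. The AP-1 site (7.33% of all windows) and the TATA box (14.2%) had no match in these 4. Of the 9 genes with counts, 6 matched a window, and Fos, Jun and Atf3 did not. Fosl2 held 2 GC boxes, and the Fosb window, which is placed on a start inside the gene's annotated span, held only a TATA match. A match is a description of the letters and not evidence of a bound site.

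Library totals ran from 32888125 to 39754319 counts, and these 9 genes held 647 to 15713 counts per library, so none was near the limit of detection. Values are CPM, the usual scaling of counts to library size, here with TMM factors, and fold changes come from the edgeR quasi-likelihood fit over all 14184 genes tested, with Benjamini-Hochberg adjustment; a gene is said to have risen or fallen where adjusted p was below 0.05. The labels name no separate cultures, so a p-value here reflects variation among libraries that could be wholly technical. Of the renal epithelial markers, Krt8 was abundant (1007 to 1252 CPM), Epcam and Pax2 had no counts, and Krt18, Cdh1, Cdh16, Pax8, Cldn4 and Slc34a1 stayed below 1 CPM in every library, so most defining markers of the labelled cell type were near 0. Summed marker levels in 3D-EV, 2D-EV, TGF-beta1 and control libraries were 724 to 763, 702 to 714, 699 to 718 and 745 to 791 CPM for 8 fibroblast and pericyte markers, mostly Mfap5 and Col14a1, and 248 to 249.9, 221 to 234, 248 to 255 and 181 to 197 CPM for 10 immune markers, nearly all Cd14; Ptprc, Itgam, Tyrobp, C1qa and C1qb had no counts. Their part in the results was not tested, and in bulk RNA fewer cells of a kind and less RNA per cell cannot be told apart.

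Fos, which encodes the classical partner of Jun, fell in TGF-beta1 cells and in 3D-EV cells against control cells. It measured 201, 201 and 294 CPM in 3D-EV libraries 1 to 3, 311, 217 and 204 CPM in 2D-EV libraries, 258, 219 and 208 CPM in TGF-beta1 libraries, and 286, 289 and 439.9 CPM in control libraries. The 3 TGF-beta1 libraries all lay below the 3 control libraries, in a comparison where 38% of all genes did not overlap. The highest 2D-EV and 3D-EV libraries reached into the control range. In TGF-beta1 against control cells Fos fell by 0.56 on the log2 scale (SE 0.19, 95% interval -0.96 to -0.17, adjusted p = 0.0421), to 229 ± 26.3 CPM in TGF-beta1 cells, against 338 ± 88.1 CPM in control cells (SD, n = 3 each). It was the 1 gene of the 9 that passed in this comparison, in which 22% of all genes tested passed, 11.8% rising and 10.2% falling. In 3D-EV against control cells it fell by 0.54 (adjusted p = 0.0483), with 232 ± 54.0 CPM in 3D-EV cells. In 2D-EV against control cells the log2 fold change was -0.47 (244 ± 58.3 CPM in 2D-EV cells, adjusted p = 0.0975). The TGF-beta1 call was lost by DESeq2 (adjusted p = 0.107) and without control replicate 3 (0.230), TGF-beta1 replicate 2 (0.122) or 3 (0.131), or 2D-EV replicate 2 (0.0502), and without control replicate 3 the log2 fold change was -0.33. The 3D-EV call was lost by DESeq2 (0.119) and without control replicate 3 (0.262), TGF-beta1 replicate 1 (0.0530), 2 (0.0638) or 3 (0.0556), 2D-EV replicate 2 (0.0568), or 3D-EV replicate 1 (0.163) or 2 (0.175). Without control replicate 3 the 3D-EV value was -0.31. In 2D-EV against control cells Fos passed without 2D-EV replicate 1 (0.0221, log2 fold change -0.69), and without control replicate 3 it was -0.24 (adjusted p = 0.423).

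Egr1, a zinc finger factor induced through serum response elements, fell in both vesicle groups against control cells. Egr1 measured 55.7, 50.1 and 61.8 CPM in 3D-EV cells, 63.7, 55.7 and 44.6 CPM in 2D-EV cells, 71.5, 59.4 and 59.9 CPM in TGF-beta1 cells, and 76.6, 66.8 and 101 CPM in control cells. Every library of both vesicle groups lay below every control library, and 1 TGF-beta1 library lay above the lowest control library. Of all genes tested, 33.2% did not overlap in 2D-EV and 38% in 3D-EV against control cells. Against control cells Egr1 fell by 0.58 on the log2 scale in 2D-EV cells (SE 0.14, 95% interval -0.88 to -0.27, adjusted p = 0.00984) and by 0.55 in 3D-EV cells (SE 0.14, interval -0.85 to -0.24, adjusted p = 0.0115). It was the 1 gene of the 9 to pass in 2D-EV against control cells, where 18.6% of all genes passed and 8.13% fell, and with Fos 1 of 2 in 3D-EV against control cells, where 23% passed and 10.8% fell. In TGF-beta1 against control cells the log2 fold change was -0.36 (63.6 ± 6.84 CPM in TGF-beta1 and 81.6 ± 17.8 CPM in control cells, adjusted p = 0.0839), and it passed without control replicate 2 (-0.48, adjusted p = 0.0260) but was -0.17 without control replicate 3 (adjusted p = 0.403). From low to high the group means were in the order 2D-EV, 3D-EV, TGF-beta1 and control. Neither vesicle group passed against TGF-beta1 cells (log2 fold change -0.19 in 3D-EV cells, adjusted p = 0.825, and -0.22 in 2D-EV cells, 0.818). The 2D-EV call was lost without control replicate 3 (adjusted p = 0.0537) or 2D-EV replicate 3 (0.0504), and the 3D-EV call without control replicate 3 (0.0635, log2 fold change -0.36) or 3D-EV replicate 2 (0.0575). All 3 comparisons share the control libraries.

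**Figure D1:**
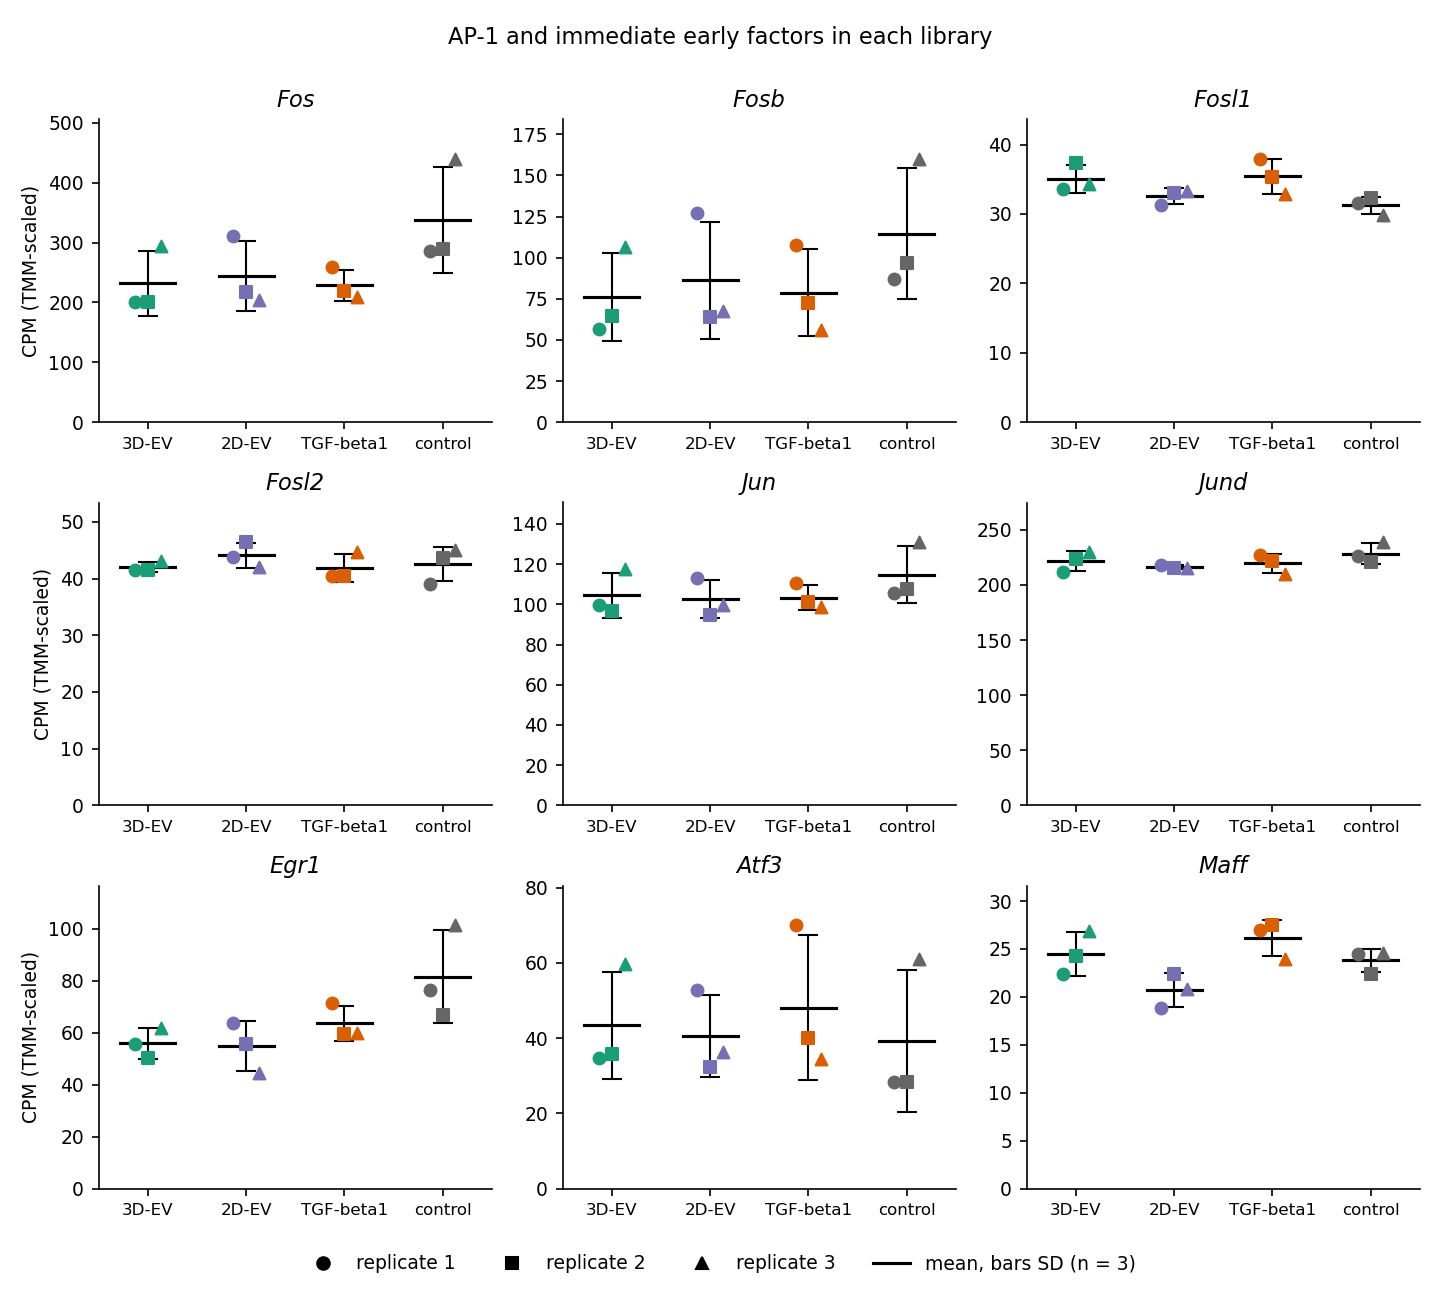
Level of each of the 9 genes in CPM (y axis, from 0) in the 3 libraries of each group, with the replicate number as the symbol, the mean as a line and the SD as bars (n = 3). In Fos, Fosb, Jun and Atf3 a single library stands above the other libraries in each group, while Fosl1, Fosl2 and Jund are closely grouped.

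Fosb, a Fos relative induced together with Fos, did not pass in any comparison. It measured 56.7, 64.7 and 107 CPM in 3D-EV cells, 127, 63.8 and 67.6 CPM in 2D-EV cells, 108, 72.5 and 55.9 CPM in TGF-beta1 cells, and 87.2, 96.5 and 160.1 CPM in control cells. The groups overlapped throughout, because the highest library of each group given TGF-beta1 exceeded both lower control libraries. The log2 fold changes against control cells were -0.60 in 3D-EV cells (adjusted p = 0.189), -0.41 in 2D-EV cells (0.410) and -0.54 in TGF-beta1 cells (0.240), with an SE of 0.31 in each. The interval in TGF-beta1 cells ran from -1.19 to 0.11. Without control replicate 3 the values were -0.28 in 3D-EV, -0.09 in 2D-EV and -0.22 in TGF-beta1 cells. The other ends of the leave-one-out ranges were -0.92 without 3D-EV replicate 3, -0.80 without 2D-EV replicate 1 and -0.83 without TGF-beta1 replicate 1.

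Jun, the founding member of the Jun proteins, measured 99.6, 96.8 and 117 CPM in 3D-EV cells, 113, 94.7 and 99.9 CPM in 2D-EV cells, 110.5, 101 and 98.5 CPM in TGF-beta1 cells, and 105, 108 and 131 CPM in control cells. The groups overlapped. Group means of Jun were 105 ± 11.2 CPM in 3D-EV cells, 103 ± 9.43 CPM in 2D-EV cells, 103 ± 6.31 CPM in TGF-beta1 cells and 115 ± 14.2 CPM in control cells (SD, n = 3 each). The log2 fold changes against control cells were -0.13, -0.16 and -0.15 in 3D-EV, 2D-EV and TGF-beta1 cells (adjusted p = 0.321, 0.247 and 0.261), and without control replicate 3 they were -0.03, -0.06 and -0.04. Jund, a Jun protein that is expressed steadily in resting cells, ran from 212 to 229.6 CPM in 3D-EV cells, from 215 to 218 CPM in 2D-EV cells, from 210.2 to 227 CPM in TGF-beta1 cells and from 220.4 to 239 CPM in control cells. Its log2 fold change in TGF-beta1 against control cells was -0.06 with a 95% interval of -0.14 to 0.03 (adjusted p = 0.368), the narrowest interval of the 9 genes. In 2D-EV against control cells the Jund libraries did not overlap, by -0.08 on the log2 scale (adjusted p = 0.205), in a comparison where 33.2% of all genes did not overlap.

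The Fos relatives that lack the strong activation domain of Fos, Fosl1 (Fra-1) and Fosl2 (Fra-2), did not follow Fos. Fosl1 measured 33.5, 37.3 and 34.3 CPM in 3D-EV cells, 31.2, 33.1 and 33.4 CPM in 2D-EV cells, 38.0, 35.4 and 32.9 CPM in TGF-beta1 cells, and 31.6, 32.3 and 29.9 CPM in control cells. All TGF-beta1 and all 3D-EV libraries lay above all control libraries, with no overlap. Fos was the other gene of the 9 without overlap in TGF-beta1 against control cells, and Egr1 the other in 3D-EV against control cells, where 38% of all genes had none in each comparison. The log2 fold change of Fosl1 against control cells was 0.18 in TGF-beta1 cells (SE 0.06, adjusted p = 0.0581), 0.17 in 3D-EV cells (SE 0.06, adjusted p = 0.0782) and 0.06 in 2D-EV cells (adjusted p = 0.603). The TGF-beta1 value passed without TGF-beta1 replicate 3 (adjusted p = 0.0265). Fosl2 was between 39.1 and 46.4 CPM in all 12 libraries, and its log2 fold changes against control cells were -0.02, 0.05 and -0.02 in 3D-EV, 2D-EV and TGF-beta1 cells (adjusted p = 0.868, 0.633 and 0.830).

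Atf3, a stress-induced bZIP factor that often represses transcription, measured 34.7, 35.7 and 59.8 CPM in 3D-EV cells, 52.9, 32.4 and 36.4 CPM in 2D-EV cells, 70.0, 39.9 and 34.3 CPM in TGF-beta1 cells, and 28.4, 28.2 and 61.1 CPM in control cells. A single library in each group was high, and the groups overlapped. The other libraries of the 3 groups given TGF-beta1 were all above the other control libraries, a split made after the values were seen and not tested. The log2 fold change in TGF-beta1 against control cells was 0.29 with a 95% interval of -0.39 to 0.97 (adjusted p = 0.581) and so covered changes in both directions. Without TGF-beta1 replicate 1 the value was -0.08, and without control replicate 3 it was 0.76. With single libraries left out, the adjusted p of this comparison ran from 0.0955 to 0.908 by edgeR, so it never passed.

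Maff, a small Maf protein with no activation domain of its own, had its lowest mean in 2D-EV cells. Maff measured 22.3, 24.3 and 26.9 CPM in 3D-EV cells, 18.9, 22.4 and 20.8 CPM in 2D-EV cells, 27.0, 27.5 and 24.0 CPM in TGF-beta1 cells, and 24.5, 22.4 and 24.6 CPM in control cells. The 2D-EV libraries all lay below the TGF-beta1 libraries, in a comparison where 12.4% of all genes did not overlap. The log2 fold change in 2D-EV against TGF-beta1 cells was -0.34 (SE 0.08, 95% interval -0.52 to -0.16, unadjusted p = 0.00118), which did not pass over all genes (adjusted p = 0.255 by edgeR's quasi-likelihood test, 0.226 to 0.608 with single libraries left out). In 3D-EV against 2D-EV cells Maff was higher by 0.24 (SE 0.08, interval 0.06 to 0.42, unadjusted p = 0.0117, adjusted p = 0.618). In TGF-beta1 against control cells the change was 0.13 (adjusted p = 0.291).

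Between the vesicle groups and TGF-beta1 cells, none of the 9 genes passed by edgeR, DESeq2 or limma-voom. In 2D-EV against TGF-beta1 cells, 1 of the 9 (Maff) had an unadjusted p below 0.05, against 7.1% of all genes, and 0.0282% of all genes passed after adjustment. In 3D-EV against TGF-beta1 cells 0 had an unadjusted p below 0.05, against 7.24% of all genes, 0% of all genes passed, and the log2 fold changes lay between -0.19 and 0.02. In 3D-EV against 2D-EV cells 1 (Maff) had an unadjusted p below 0.05, against 6.9% of all genes, and 0.00705% of all genes passed. The intervals show what sizes remained possible. For Fos in 3D-EV against 2D-EV cells the interval ran from -0.47 to 0.33, for Fosb from -0.84 to 0.47 and for Atf3 from -0.58 to 0.77, whereas for Jund it ran from -0.05 to 0.12, for Fosl2 from -0.20 to 0.06 and for Fosl1 from -0.03 to 0.24. A fall of the size seen for Fos in TGF-beta1 against control cells lay inside the intervals of Fosb and Atf3. It lay outside those of Fos itself, Jund, Fosl1 and Fosl2.

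**Figure D2:**
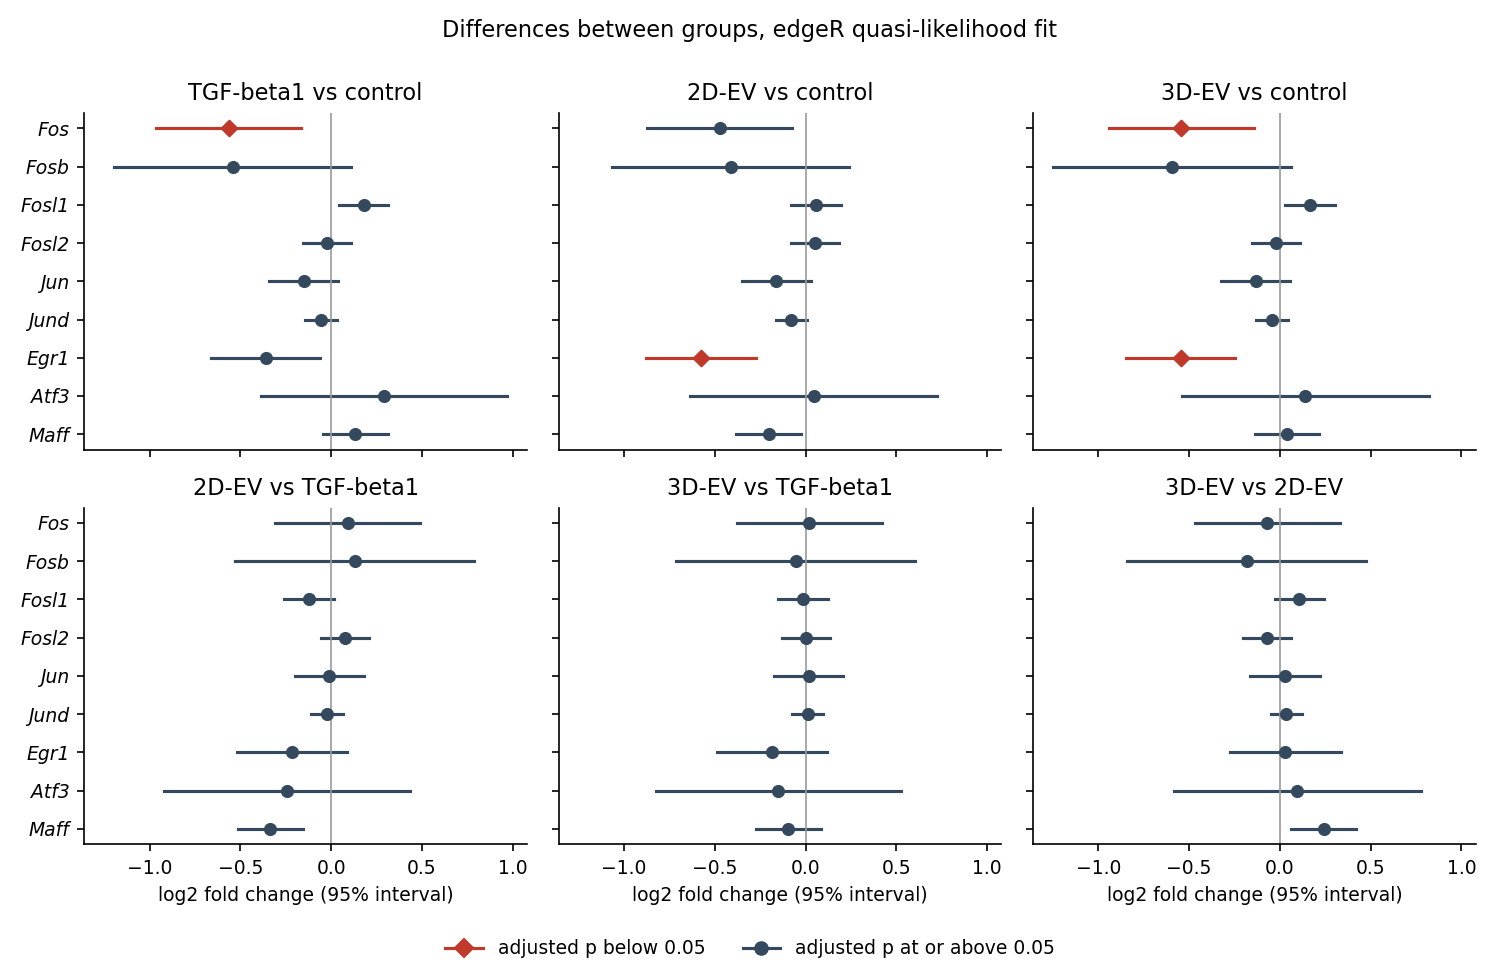
Log2 fold change (x axis) of each gene in the 6 comparisons, with the 95% interval of the edgeR fit as lines and calls at adjusted p below 0.05 as red diamonds. Fos passed in TGF-beta1 and 3D-EV against control cells and Egr1 in 2D-EV and 3D-EV against control cells; the lower row, without control cells, has no call.

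The spread between libraries of the same group divided the 9 genes. The SD of log2 CPM within groups was 0.51 for Atf3, 0.50 for Fosb, 0.30 for Fos, 0.23 for Egr1 and 0.14 for Jun. It was 0.11 for Maff, 0.08 for Fosl1 and Fosl2 and 0.05 for Jund, against a median of 0.07 over the 9201 genes at 10 CPM or more. Among those genes Atf3 and Fosb were more variable than 99.5%, Fos than 98.9%, Egr1 than 98.2% and Jun than 92.3%. Jund was more variable than 26.9%, Fosl1 than 57.8% and Fosl2 than 59.3%.

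The 5 most variable genes, and Jund, which varied little, were highest in the same libraries. Of the 9 genes, 8 had their highest 3D-EV value in replicate 3, 6 their highest 2D-EV value in replicate 1, 7 their highest TGF-beta1 value in replicate 1 and 8 their highest control value in replicate 3. Fos, Fosb, Jun, Jund, Egr1 and Atf3 were highest in that library in all 4 groups. For Fosb that library stood 1.75-fold above the mean of the other libraries in 3D-EV cells, 1.93-fold in 2D-EV cells, 1.68-fold in TGF-beta1 cells and 1.74-fold in control cells. For Atf3 the same ratios were 1.70, 1.54, 1.89 and 2.16, and for Fos 1.47, 1.48, 1.21 and 1.53. The deviations from the group means of these 6 genes correlated in all 15 pairs (Pearson r 0.64 to 0.97 over 12 libraries, median 0.84), which follows in part from grouping them by their shared highest library and is a description of values that share libraries. The 21 pairs with Fosl1, Fosl2 or Maff ran from -0.47 to 0.67 (median 0.19). Jun followed Fos most closely (r = 0.97), with a smaller swing, and Fosl1 ran slightly against Fos (r = -0.31).

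**Figure D3:**
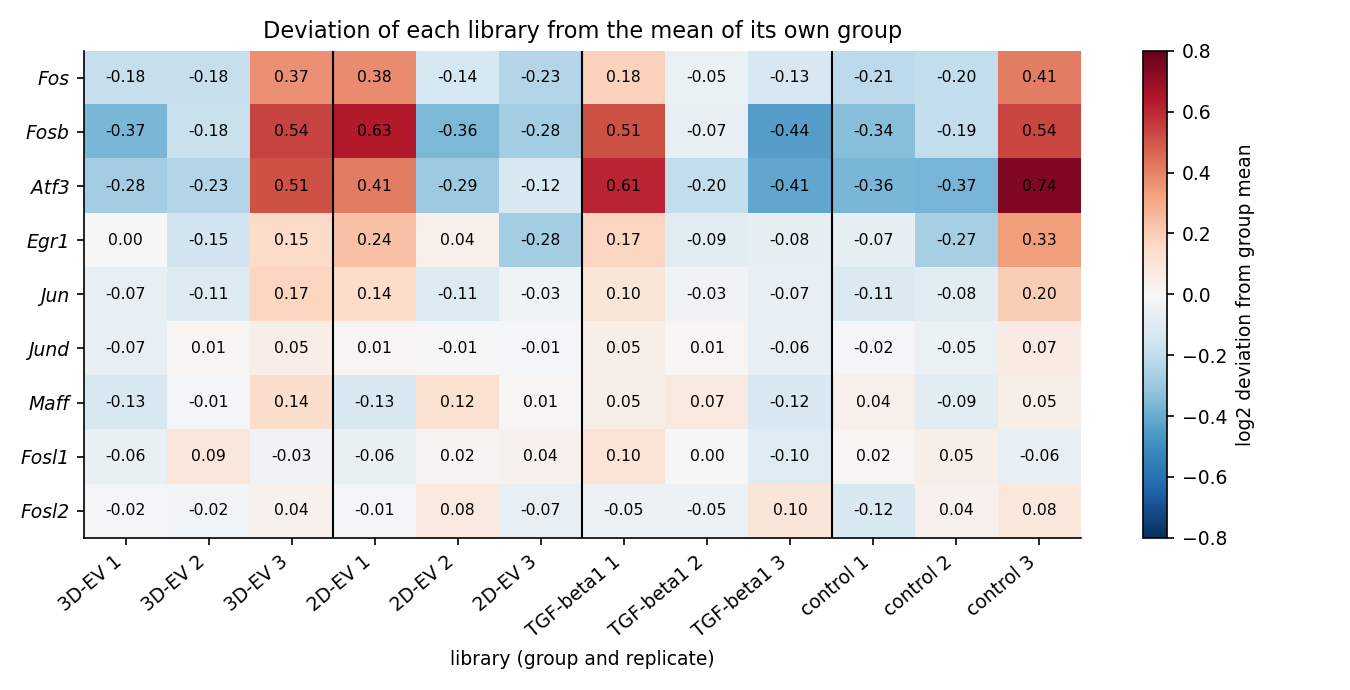
Deviation of log2 CPM from the mean of the library's own group (colour and printed value) for the 9 genes (rows) in the 12 libraries (columns, lines between groups). Fos, Fosb, Atf3, Egr1 and Jun are red together in 3D-EV replicate 3, 2D-EV replicate 1, TGF-beta1 replicate 1 and control replicate 3; Fosl1 and Fosl2 are not high in all 4.

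Other immediate early genes were often highest in the same libraries. Of the 34 tested from a list of these, 22 had their highest 3D-EV value in replicate 3, 16 their highest 2D-EV value in replicate 1, 25 their highest TGF-beta1 value in replicate 1 and 29 their highest control value in replicate 3. Over all genes tested the shares in these libraries were 35%, 33.3%, 35.2% and 35.6%. Of 24 tested AP-1 target genes the counts were 5, 7, 8 and 7. The 4 libraries had totals of 34185568, 34349927, 35191827 and 34830269 counts. Mitochondrially encoded genes took 5.58%, 5.58%, 5.31% and 5.58% of these counts, which were the highest and the lowest shares over all 12 libraries. The remaining libraries had 5.51% and 5.53% in 3D-EV and 5.4% and 5.41% in 2D-EV cells. In TGF-beta1 cells they had 5.54% and 5.38%, and in control cells 5.53% and 5.46%. The replicate numbers of the 4 libraries differ between groups. Whether culture, harvest or library preparation set these libraries apart was not tested, and the labels give no batch.

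**Figure D4:**
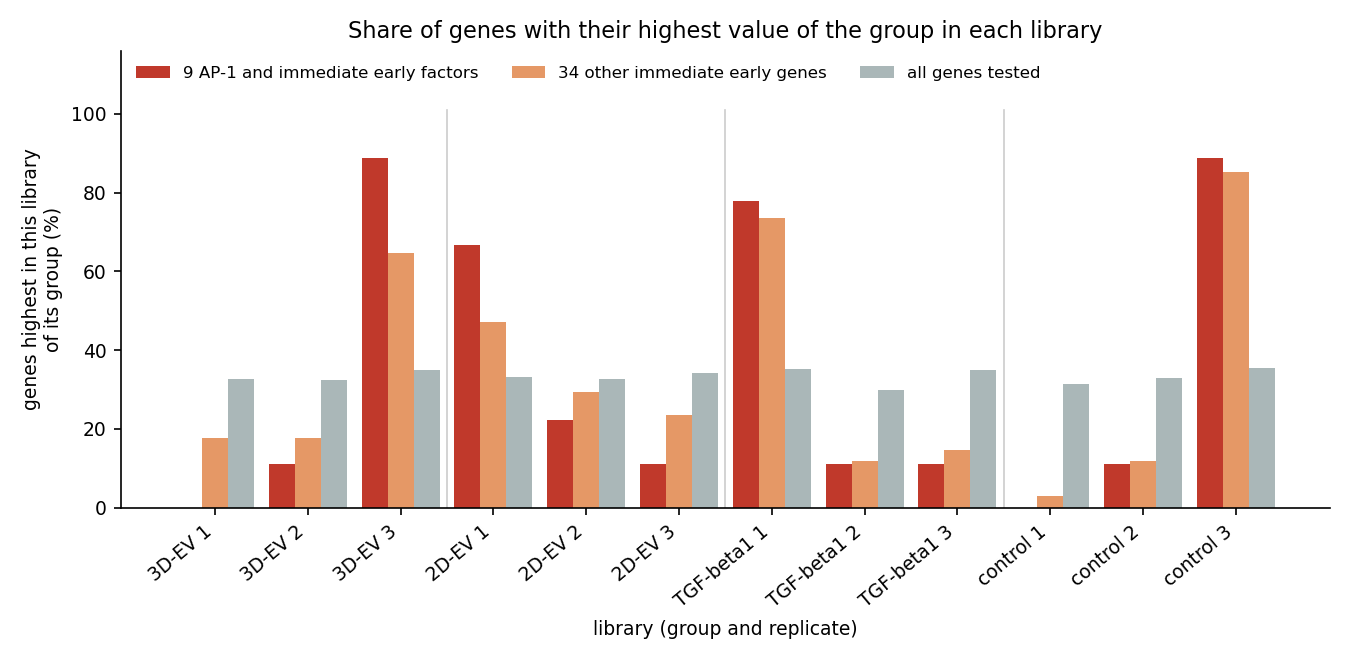
Share of genes (y axis, percent) whose highest value of the group lies in each library (x axis), for the 9 genes described here, 34 other immediate early genes and all genes tested. In 3D-EV replicate 3, TGF-beta1 replicate 1 and control replicate 3 both gene sets stand well above the 35 to 35.6% of all genes, and in 2D-EV replicate 1 they do so less.

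The rest of the pathway was described by 5 lists with 111 tested genes. Of 34 other immediate early genes, 5 rose and 9 fell in TGF-beta1 against control cells, 2 rose and 11 fell in 2D-EV against control cells, and 4 rose and 11 fell in 3D-EV against control cells, with median log2 fold changes of -0.09, -0.21 and -0.13 beside medians of all genes within 0.01 of 0. The shares that fell were 26.5%, 32.4% and 32.4%, beside 10.2%, 8.13% and 10.8% of all genes, and the shares that rose were 14.7%, 5.88% and 11.8%, beside 11.8%, 10.5% and 12.2%. In 29 of the 34 genes the highest control value lay in control replicate 3. How far these shares rest on that library was not tested. Zfp36l1, which destabilises AU-rich mRNAs, fell by 0.63 on the log2 scale in TGF-beta1 cells (71.9 ± 1.76 CPM there and 111 ± 6.46 CPM in control cells, adjusted p = 2.3e-06), by 0.61 in 2D-EV cells and by 0.55 in 3D-EV cells. Klf10, a TGF-beta-inducible zinc finger repressor, fell to 51.3 ± 0.671 CPM in TGF-beta1 cells, against 67.9 ± 5.95 CPM in control cells (adjusted p = 0.000421). Csrnp1 fell by 0.28 in 2D-EV (adjusted p = 0.000347) and by 0.13 in TGF-beta1 against control cells (0.0400). Zfp36 fell by 0.61 in 3D-EV (adjusted p = 0.000267) and by 0.56 in TGF-beta1 against control cells (0.000533). DESeq2 and limma-voom also called Csrnp1 in 3D-EV and Zfp36 in 2D-EV against control cells. Hbegf, an EGF receptor ligand, rose to 196 ± 14.2 CPM in TGF-beta1 cells, against 141 ± 6.03 CPM in control cells (adjusted p = 6.4e-06), and rose by 0.25 in 2D-EV and by 0.37 in 3D-EV cells. Phlda1 rose by 0.34 in TGF-beta1 cells (adjusted p = 0.000739). Plk3, a stress-responsive kinase, rose by 0.33 in TGF-beta1 cells (adjusted p = 0.000999), by 0.33 in 2D-EV and by 0.32 in 3D-EV cells. The listed immediate early genes that passed moved in both directions.

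Of 17 other bZIP partners and relatives, 3 rose and 2 fell in TGF-beta1 against control cells, 5 and 2 in 2D-EV and 4 and 2 in 3D-EV cells. That is 29.4%, 41.2% and 35.3% of the list, beside 22%, 18.6% and 23% of all genes called. Mafg, a small Maf protein like Maff, rose to 94.6 ± 0.599 CPM in TGF-beta1 cells, against 81.6 ± 3.08 CPM in control cells (adjusted p = 0.000592), and Nfe2l1 rose by 0.18 (adjusted p = 0.00352). Nfe2l2 (NRF2), which binds DNA as a dimer with small Maf proteins, fell by 0.19 (233 ± 7.56 CPM in TGF-beta1 and 266 ± 3.11 CPM in control cells, adjusted p = 0.000385). Cebpb, a C/EBP factor, fell by 0.20 (adjusted p = 0.0157); leaving out control replicate 3 gave 0.0793 and leaving out TGF-beta1 replicate 3 gave 0.0740. Atf6, a sensor of misfolded protein, rose by 0.25 in 3D-EV against control cells (adjusted p = 0.00887). It also rose against control cells by 0.26 in TGF-beta1 (adjusted p = 0.00807) and by 0.21 in 2D-EV cells (0.0310).

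Of 24 upstream kinases and factors, 2 rose and 4 fell in TGF-beta1 against control cells, 2 and 4 in 2D-EV and 2 and 3 in 3D-EV cells. These shares of 25%, 25% and 20.8% were near the 22%, 18.6% and 23% of all genes called. Elk3, an ETS partner of SRF that represses serum response elements in resting cells, rose by 0.30 in TGF-beta1 cells (91.4 ± 2.30 CPM there and 74.2 ± 2.90 CPM in control cells, adjusted p = 5.3e-05), by 0.27 in 2D-EV cells and by 0.33 in 3D-EV cells. Map2k1, the kinase MEK1 above ERK, rose by 0.21 in TGF-beta1 cells (adjusted p = 0.000275). Rps6ka3 (RSK2), a kinase below ERK, fell by 0.26 (adjusted p = 0.000455), and Rps6ka5 (MSK1), a kinase that phosphorylates histone H3 at immediate early genes, fell by 0.40 (15.5 ± 1.02 CPM in TGF-beta1 and 20.6 ± 2.05 CPM in control cells, adjusted p = 0.00257). Smad3, a mediator of TGF-beta signalling, fell by 0.26 in 2D-EV against control cells (adjusted p = 0.00628). Of 12 genes of restraint and turnover, 1 rose and 1 fell in each comparison with control cells. This was 16.7% of the list, near the 22%, 18.6% and 23% of all genes called. Nab1, a corepressor of EGR proteins, rose by 0.19 in TGF-beta1 cells (81.8 ± 1.05 CPM there and 71.6 ± 4.18 CPM in control cells, adjusted p = 0.00828), and Zfp36l2 fell by 0.12 (adjusted p = 0.0363). The Zfp36l2 value missed the threshold when control replicate 2 (0.119), control replicate 3 (0.135), TGF-beta1 replicate 2 (0.111) or TGF-beta1 replicate 3 (0.144) was omitted, and when 2 groups were fitted alone (0.0531). Dusp4, a nuclear MAP kinase phosphatase, fell by 0.75 in 3D-EV cells (1.60 ± 0.320 CPM there and 2.70 ± 0.692 CPM in control cells, adjusted p = 0.0298). The Dusp4 value missed it when control replicate 2 (0.152), control replicate 3 (0.0561), 3D-EV replicate 1 (0.114) or 3D-EV replicate 3 (0.0745) was omitted.

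More AP-1 target genes rose than fell. Of 24 tested, 12 rose, 4 fell and 8 did not pass in each of the 3 comparisons with control cells, so 50% of a list chosen with earlier results known rose, beside 12.2% of all genes in 3D-EV, 10.5% in 2D-EV and 11.8% in TGF-beta1 cells. The share that fell was 16.7%, beside 10.8%, 8.13% and 10.2% of all genes. The median log2 fold change was 0.46 in 3D-EV, 0.37 in 2D-EV and 0.34 in TGF-beta1 cells. Tgfb1, the gene of the cytokine itself, rose by 0.71 to 187 ± 1.00 CPM in TGF-beta1 cells, against 114 ± 8.08 CPM in control cells (adjusted p = 7.8e-08), and Spp1 (osteopontin) by 0.57 in 2D-EV and 0.66 in 3D-EV cells. Ccnd1, cyclin D1, fell by 0.18 in TGF-beta1 cells (269 ± 7.07 CPM there and 305 ± 9.50 CPM in control cells, adjusted p = 0.00603), and Mmp2 by 0.52. Areg, an EGF receptor ligand, fell by 0.42 in 2D-EV cells (adjusted p = 0.00350), and Ezr (ezrin) by 0.18 in 3D-EV cells (adjusted p = 0.000575). None of these was called in 1 group only: DESeq2 and limma-voom called Tgfb1, Spp1, Ccnd1, Mmp2, Areg and Ezr in all 3 comparisons with control cells. Many of the listed AP-1 target genes are also known targets of Smad proteins. Between the vesicle groups and TGF-beta1 cells, and between the vesicle groups, 0 of the 111 listed genes passed by edgeR; 22, 14 and 14 had an unadjusted p below 0.05 in 2D-EV against TGF-beta1, 3D-EV against TGF-beta1 and 3D-EV against 2D-EV cells, or 19.8%, 12.6% and 12.6%, beside 7.1%, 7.24% and 6.9% of all genes. DESeq2 called 6, 0 and 1 of them and limma-voom 2, 0 and 0.

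The genes whose log2 CPM followed these genes most closely over the 12 libraries were taken from 10688 genes at 1 CPM or more. For Egr1 they were Btg2, an antiproliferative immediate early gene (Pearson r = 0.98), Setd2 (0.93) and Errfi1, a feedback inhibitor of the EGF receptor (0.93). Btg2 measured 192, 179 and 209 CPM in 3D-EV cells, 208, 177 and 157 CPM in 2D-EV cells, 233, 193 and 192 CPM in TGF-beta1 cells, and 227, 215 and 282 CPM in control cells, so its highest library was that of Egr1 in every group. For Atf3 the closest were Depp1, a FOXO target (r = 0.96), H4f3 (0.88) and Evc2 (0.84). Depp1 measured 37.5, 39.4 and 60.3 CPM in 3D-EV cells, 51.9, 35.2 and 34.5 CPM in 2D-EV cells, 55.9, 44.9 and 36.1 CPM in TGF-beta1 cells, and 33.5, 35.1 and 60.0 CPM in control cells, with the same high libraries. That Btg2 and Depp1 share these libraries follows in part from choosing them by correlation over the same 12 libraries. For Fos the closest were Arrdc3 (r = 0.95), Etfbkmt (0.94) and Safb (0.94). For Fosl1 they were Chmp4b (r = 0.94), Mgst2 (0.93) and Dph5 (0.92). None of the closest genes of Fos, Atf3 or Fosl1 was on the list of immediate early genes, while Btg2 and Errfi1 were.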

How the data were processed

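Total RNA of 12 NRK-52E libraries was sequenced; per the labels' protocols, TRIzol was used for extraction and DNase I to remove genomic DNA. The submitters' processing notes name fastp, HISAT2, StringTie and DESeq2 with build mRatBN7.2; no source used here gives tool versions, counting settings or strand handling. The values deposited by the authors are whole-number counts per gene, not normalized, for 24660 genes, and the 12 tables of single libraries were checked and hold the same values as the joint table. Columns left unused number 0.

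The tests used edgeR 4.0.16 under R 4.3.3: filterByExpr by group with a minimum count of 10, TMM factors (0.983 to 1.03), a fit of 4 group means over all 12 libraries, quasi-likelihood F-tests of 6 contrasts, Benjamini-Hochberg adjustment over all genes tested and a threshold of 0.05. Intervals are 95% from the moderated fit. Alternatives were DESeq2 1.42.0, limma-voom (limma 3.58.1), other scaling, no filter, 2 groups only, a replicate block and leaving out each library. The code was tested on simulated counts. Replicates exceeded counting noise, with a chi-square per degree of freedom of 6.82 to 10.9 in 12 within-group pairs. Named besides the 9 genes were, per list and comparison, up to 2 rises and 2 falls with the smallest p at 1 CPM or more, and the 3 genes most correlated with Fos, Egr1, Fosl1 and Atf3; some repeats were left out. Some listed genes are not reported here. The genes and lists were chosen with earlier results of these data known.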

Additional observations from a re-analysis of the deposited data

How the results depend on the processing

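Across the alternatives listed in the methods, 0 of the 9 genes passed in 2D-EV against TGF-beta1, 3D-EV against TGF-beta1 and 3D-EV against 2D-EV cells. In TGF-beta1 against control cells 1 gene passed, against 2 without the low-count filter (Fos and Egr1), 2 with library totals only (likewise) and 0 by DESeq2 (0 to 2 with single libraries left out). In 2D-EV against control cells 1 passed, against 2 without the filter (Egr1 and Fos) and 2 with library totals (Egr1 and Jund) (0 to 2 with libraries left out). In 3D-EV against control cells 2 passed, against 1 by DESeq2 and 1 with the replicate block (0 to 2 with libraries left out). Same-numbered libraries of different groups correlated by -0.151 to 0.144 over 18 pairs (4 above 0.1), and for 5 of 12 libraries the closest match had the same number. These values show no clear pairing by number but cannot exclude it. With the replicate block the adjusted p of Fos was 0.0496 in TGF-beta1 and 0.0500121 in 3D-EV against control cells. That of Zfp36l2 in TGF-beta1 against control cells was 0.0570.

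Genes called in 2D-EV against TGF-beta1 cells numbered 4, against 14 without the filter, 54 by DESeq2, 9 by limma-voom and 7 with 2 groups only (1 to 6 with libraries left out). In 3D-EV against TGF-beta1 cells they numbered 0, against 20 by DESeq2 (0 to 2). In 3D-EV against 2D-EV cells they numbered 1, against 8, 35 and 2 under those first 3 alternatives, 2 with the replicate block and 2 with 2 groups only (1 to 4). With library totals only, 1144 genes rose and 2243 fell in TGF-beta1 against control cells, beside 1676 and 1448 with TMM; the counts were 1086 and 1701 beside 1489 and 1153 in 2D-EV, and 1103 and 2458 beside 1731 and 1531 in 3D-EV against control cells. The cause was not tested.

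The sign of an uncalled change turned with library totals only for Jun in 2D-EV against TGF-beta1 (0.0018), Fosl2 in 3D-EV against TGF-beta1 (-0.0010) and Maff in 3D-EV against control cells (-0.019). It also turned with single libraries left out, between the lowest and highest log2 fold changes given here. In TGF-beta1 against control cells the range was -0.080 to 0.018 for Fosl2 and -0.080 to 0.76 for Atf3. In 2D-EV against control cells the range was -0.0052 to 0.092 for Fosl2 and -0.19 to 0.52 for Atf3. In 3D-EV against control cells the range was -0.16 to 0.61 for Atf3, -0.033 to 0.10 for Maff and -0.075 to 0.022 for Fosl2. In 2D-EV against TGF-beta1 cells the range was -0.087 to 0.042 for Jun, -0.48 to 0.13 for Atf3, -0.26 to 0.42 for Fosb and -0.12 to 0.21 for Fos. In 3D-EV against TGF-beta1 cells the range was -0.38 to 0.24 for Fosb, -0.065 to 0.037 for Fosl1, -0.021 to 0.054 for Fosl2, -0.45 to 0.22 for Atf3, -0.19 to 0.12 for Fos, -0.073 to 0.070 for Jun and -0.018 to 0.045 for Jund. In 3D-EV against 2D-EV cells the range was -0.28 to 0.14 for Fos, -0.51 to 0.21 for Fosb, -0.062 to 0.10 for Jun, -0.20 to 0.33 for Atf3 and -0.096 to 0.15 for Egr1.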
